A study of Mus musculus with 36 samples.

Results

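The livers of 6 Thrb knockout mice are described here, 3 collected at zeitgeber time 10 (ZT10, hours after lights on, late in the light phase) and 3 collected 12 h later in the cycle at ZT22, late in the dark phase. They were chosen by genotype and sampling time alone and make up 6 of the 36 liver libraries of the series, in which 18 knockout and 18 control mice were sampled at 6 times, 4 h apart. The knockouts were THRB-/- males of 2 to 3 months, herein THRBKO, on a C57Bl/6NCrl background, carrying a germline allele that affects both THRB isoforms and impairs the DNA binding of the receptor in all tissues. The controls, herein THRBWT, were THRB+/- males of the same age, so each control mouse also carried 1 copy of the allele. All animals were housed in groups under a 12 h light and 12 h dark cycle with normal chow and water ad libitum. Each library came from 1 mouse, the mice of a group are lettered a to c, and no mouse was sampled more than once. Light, feeding, sleep and clock time change together between ZT10 and ZT22 and cannot be told apart in these data.

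Thyroid hormone receptor beta is the main thyroid hormone receptor of hepatocytes and acts as a transcription factor on genes of lipid, cholesterol and bile acid turnover. The liver also holds a circadian clock, a feedback loop in which ARNTL and its partners CLOCK or NPAS2 activate the period, cryptochrome and Nr1d genes through E-boxes, while NR1D1 and NR1D2 repress, and ROR receptors activate, Arntl and its allies through RORE elements. A further group of factors, DBP, TEF and HLF against the repressor NFIL3, acts through D-boxes. In the mouse, a nocturnal animal that eats mostly in the dark, the genes of the Dbp and Nr1d group reach high levels in the light phase, and those of the Arntl group late in the dark phase.

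The promoters of 4 clock genes that changed in these livers are printed here, because they show the elements through which the loop is known to act. They were picked for holding the element, from the RefSeq sequences of GRCm38.p6 that run from 250 bases before to 50 bases after a gene's start. Both strands were searched for the E-box CACGTG, the D-box TTATGNAA and the RORE core TAGGTCA, and capitals mark the matches. The Ciart window (chr3:95882179-95882478, minus strand) holds 3 E-boxes beginning at positions -116, -58 and -44 from the start, and the Per3 window (chr4:151044616-151044915, minus strand) 2 D-boxes at -205 and -158. The Arntl window (chr7:113207261-113207560, plus strand) holds the RORE core at position 31 after the start, and the Nfil3 window (chr13:52980990-52981289, minus strand) holds it at -12, read on the opposite strand.
Ciart: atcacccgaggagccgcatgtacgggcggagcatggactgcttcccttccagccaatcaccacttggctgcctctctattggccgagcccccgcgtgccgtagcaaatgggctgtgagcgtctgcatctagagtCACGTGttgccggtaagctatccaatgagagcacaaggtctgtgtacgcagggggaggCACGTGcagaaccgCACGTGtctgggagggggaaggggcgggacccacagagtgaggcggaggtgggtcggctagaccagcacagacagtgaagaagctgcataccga
Per3: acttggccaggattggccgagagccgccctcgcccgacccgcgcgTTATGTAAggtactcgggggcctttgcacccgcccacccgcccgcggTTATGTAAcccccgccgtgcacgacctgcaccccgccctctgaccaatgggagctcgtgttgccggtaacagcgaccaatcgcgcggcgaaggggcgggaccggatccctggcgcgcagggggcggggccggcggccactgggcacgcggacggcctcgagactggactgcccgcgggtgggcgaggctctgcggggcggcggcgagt
Arntl: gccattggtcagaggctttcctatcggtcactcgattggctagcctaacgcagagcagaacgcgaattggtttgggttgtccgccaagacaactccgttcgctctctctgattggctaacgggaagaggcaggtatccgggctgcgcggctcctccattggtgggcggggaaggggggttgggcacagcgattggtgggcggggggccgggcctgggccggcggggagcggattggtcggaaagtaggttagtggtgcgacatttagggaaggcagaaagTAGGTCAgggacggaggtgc
Nfil3: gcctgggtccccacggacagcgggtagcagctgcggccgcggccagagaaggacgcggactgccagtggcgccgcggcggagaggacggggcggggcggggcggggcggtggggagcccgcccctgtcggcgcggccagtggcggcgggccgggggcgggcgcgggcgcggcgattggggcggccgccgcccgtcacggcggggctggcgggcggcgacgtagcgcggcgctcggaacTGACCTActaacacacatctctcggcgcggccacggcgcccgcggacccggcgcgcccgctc

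A match in such a window is a description of its letters and not a binding site. Of the 16 clock genes with a window, 8 held at least 1 of the 3 elements and 8 held none, among them Dbp, Nr1d1 and Nr1d2, which fell, and Npas2 and Clock, which rose. Cry1, which also rose, held an E-box, and only 1 of the 2 Arntl windows held an element. Across all 27025 genes with a window, 8.09% held an E-box, 3.99% a D-box and 2.97% the RORE core. Among the 11992 genes with a window that were tested here, the shares were 11.04% for the E-box, 2.77% for the D-box and 2.51% for the RORE core. The 175 genes with a window that were at least 2-fold lower at ZT22 held an E-box in 17.1%, a D-box in 7.43% and a RORE core in 1.14% of windows. The 289 genes that were at least 2-fold higher held them in 10.7%, 4.50% and 4.84%. The heat shock element, searched as GAANNTTC or TTCNNGAA, was found in 14.4% of tested windows, in 10.7% of those at least 2-fold higher and in 8.0% of those at least 2-fold lower. These shares were not tested.

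Poly(A) RNA of each liver had been sequenced from both ends without preserving strand, and the authors deposited read counts per gene, given here as CPM, counts scaled to a common library size. The ZT10 libraries held 31931089 to 35201377 counts and the ZT22 libraries 35868938 to 37534917, so depth did not overlap between the times. Genes of the mitochondrial genome took 6.15% to 7.15% of counts at ZT10 and 6.63% to 7.30% at ZT22. Thrb itself was read at 31.5, 37.7 and 31.1 CPM at ZT10 and 30.7, 30.5 and 32.4 CPM at ZT22, with overlapping groups and no call (log2 fold change -0.10, adjusted p = 0.696). In THRBWT it was at 25.9 to 29.6 CPM at ZT10 and 27.0 to 30.7 CPM at ZT22. Every THRBKO liver was above every THRBWT liver at ZT10, and the ranges overlapped at ZT22. The transcript was thus not lower in THRBKO, and its level does not check the genotype labels. All 12 hepatocyte markers were detected, with a summed level of 91775 to 102294 CPM at ZT10 and 96706 to 112491 CPM at ZT22. None was called by edgeR, 2 had an unadjusted p under 0.05, and DESeq2 called 1.

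In the THRBKO liver, the change from late light to late dark involved 2622 of 17994 tested genes, which is 14.6%. A gene was called where the quasi-likelihood test of edgeR gave an adjusted p under 0.05, and rose or fell is written of called genes. At ZT22, 1349 genes (7.5%) were higher and 1273 (7.07%) were lower than at ZT10, and the median over all tested genes was -0.000224 on the log2 scale. A change of at least 2-fold was found for 450 genes (2.5%) upward and 249 (1.38%) downward. For 5221 of the tested genes (29%) the CPM of the 2 times did not overlap. Genes named from the lists below were mostly those with the smallest adjusted p, so separate groups among them follow largely from that choice. The median size of a called change was 0.63 on the log2 scale. The count was not evenly supported by the libraries, since leaving out KO_ZT22c lowered it to 1682, and 1230 of the calls (46.9%) were made in all 6 fits that left out 1 library. Protein-coding genes were called in 16.97% of 14193 cases, lincRNAs in 10.1% of 690, antisense genes in 4.86% of 720 and processed pseudogenes in 2.61% of 1035.

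Among called genes with a mean of at least 50 counts and groups that did not overlap, those that fell most were mainly of the day arm of the clock. Dbp, the D-box activator (chr7:45705088-45710203, plus strand, GRCm38), was at 220.3, 176 and 219.7 CPM at ZT10 and 3.92, 3.04 and 2.54 CPM at ZT22, and it had the largest fall of the genes named here (log2 fold change -6.02, SE 0.503, adjusted p = 1.61e-09). Nr1d1, which encodes the repressor REV-ERB alpha (chr11:98767932-98775333, minus strand), was at 92.6, 66.9 and 120.2 CPM at ZT10 and 2.73, 1.53 and 1.70 CPM at ZT22 (log2 fold change -5.55, SE 0.353, adjusted p = 1.82e-11). For both genes every ZT10 liver was above every ZT22 liver by a wide margin. Each overlaps a gene on the opposite strand, Sphk2 for Dbp and Thra for Nr1d1, whose reads cannot be separated without strand. Rgs16, a regulator of G protein signalling, fell from 326, 105 and 245 CPM at ZT10 to 6.68, 2.82 and 5.84 CPM at ZT22 (log2 fold change -5.46, SE 0.816, adjusted p = 2.27e-05). Ciart, a repressor of the CLOCK and ARNTL pair, fell from 30.0, 37.7 and 51.0 CPM at ZT10 to 1.10, 0.995 and 2.64 CPM at ZT22 (log2 fold change -4.64, SE 0.546, adjusted p = 6.43e-07), and Nr1d2, the paralogue of Nr1d1, from 104, 109.7 and 107 CPM at ZT10 to 11.3, 9.92 and 4.71 CPM at ZT22 (log2 fold change -3.63, SE 0.286, adjusted p = 5.76e-10). All 3 were separated completely between the times, which the rule for naming the 10 largest falls required of each. The other 5 of the 10 largest falls were less deep. Bhlhe41, a repressor at E-boxes, fell by 3.38 on the log2 scale (SE 0.443, adjusted p = 3.18e-06), Per3 by 2.63 (SE 0.333, adjusted p = 2.12e-06) and Erbb4, a receptor of neuregulins, by 3.28 (SE 0.429, adjusted p = 3.23e-06). Ppp1r3g, a subunit that directs a phosphatase to glycogen, varied among mice, at 4.72, 1.19 and 9.95 CPM at ZT10 and 0.249, 1.10 and 0.0785 CPM at ZT22. Its call (log2 fold change -3.46, SE 0.991, adjusted p = 0.0158) was lost without KO_ZT10c, KO_ZT22a or KO_ZT22c (adjusted p up to 0.118). Lnx1, an E3 ubiquitin ligase that shares a locus with Fip1l1 on the opposite strand, fell by 2.90 (adjusted p = 0.0112), a call lost without KO_ZT22b (adjusted p = 0.0612).

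The largest rises under the same rule were those of partners in the same loop. Npas2 (chr1:39193731-39363236, plus strand) was at 0.162, 0.0849 and 0.299 CPM at ZT10 and 2.79, 7.42 and 9.63 CPM at ZT22 (log2 fold change 5.17, SE 0.85, adjusted p = 8.02e-05). Arntl, the core activator (chr7:113207465-113314126, plus strand), was at 1.23, 0.878 and 1.05 CPM at ZT10 and 29.9, 33.3 and 33.3 CPM at ZT22 (log2 fold change 4.94, SE 0.326, adjusted p = 2.38e-11). The 3 livers of each time lay close together for Arntl, while the ZT22 levels of Npas2 were spread, with KO_ZT22a lowest. Cdkn1a, the cyclin-dependent kinase inhibitor p21, rose from 0.711, 1.16 and 1.22 CPM at ZT10 to 16.3, 28.9 and 35.8 CPM at ZT22 (log2 fold change 4.70, SE 0.608, adjusted p = 2.81e-06). Elovl3, an elongase of very long chain fatty acids, rose from 22.6, 31.3 and 43.4 CPM at ZT10 to 629, 266 and 707 CPM at ZT22 (log2 fold change 4.04, SE 0.666, adjusted p = 8.15e-05). Its lowest ZT22 liver, KO_ZT22b, still lay far above every ZT10 liver. Pitx3, a homeobox factor known from lens and midbrain, rose from 0.517, 0.651 and 1.16 CPM at ZT10 to 20.9, 9.03 and 22.4 CPM at ZT22 (log2 fold change 4.48, SE 0.724, adjusted p = 6.46e-05). Pitx3 ends 377 bases from the end of Elovl3 on the opposite strand, KO_ZT22b was again its lowest ZT22 liver, and whether its reads come from the neighbour was not tested. Chka, the choline kinase that begins phosphatidylcholine synthesis, rose from 12.1, 12.1 and 13.4 CPM at ZT10 to 101, 112 and 159 CPM at ZT22 (log2 fold change 3.30, SE 0.272, adjusted p = 1.29e-09). Slc34a2, a sodium phosphate cotransporter, rose by 4.23 on the log2 scale, Loxl4, a lysyl oxidase of the matrix, by 3.99, and Zbtb7c, a zinc finger factor, by 3.33 (adjusted p = 3.95e-05, 9.35e-06 and 0.00655). Zbtb7c was at 0.259, 1.16 and 0.896 CPM at ZT10 and 13.3, 1.48 and 8.95 CPM at ZT22, with KO_ZT22b close to the ZT10 group. Clic3, a chloride channel protein that overlaps Paxx on the opposite strand, was at 4.56, 0.368 and 0.717 CPM at ZT10 and 22.0, 41.0 and 33.1 CPM at ZT22 (log2 fold change 4.12, SE 0.643, adjusted p = 4.01e-05), with KO_ZT10a above its group. All 10 had groups that did not overlap, which the rule for naming them required.

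**Figure D1:**
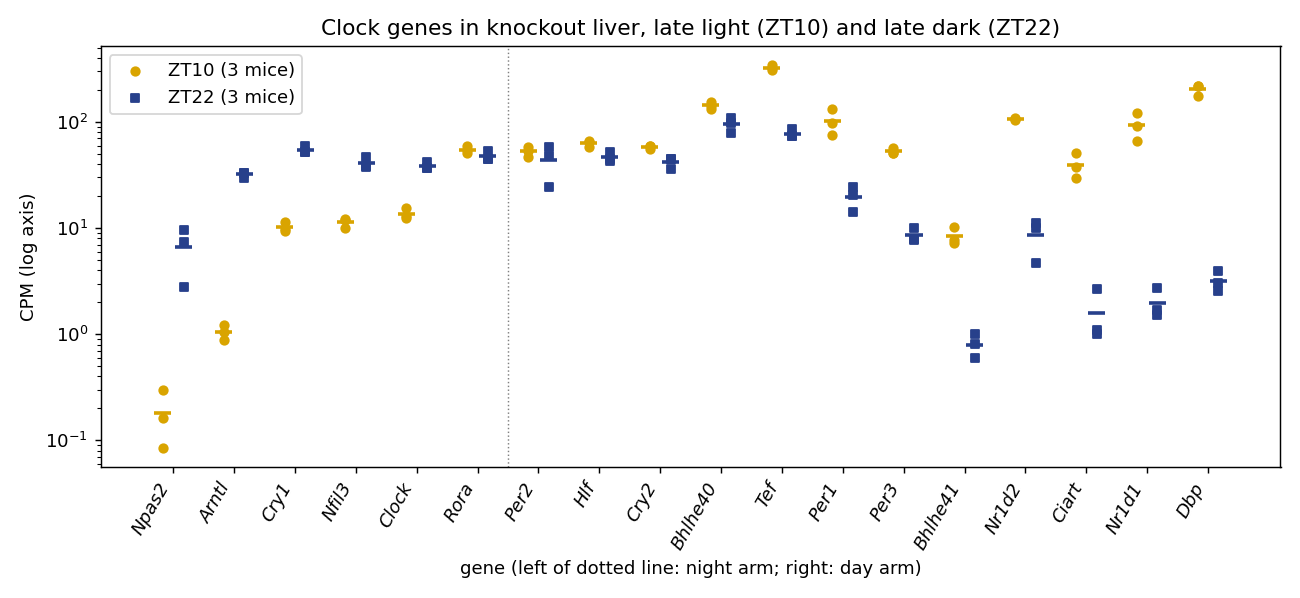
Levels as CPM (log axis) of 18 clock genes in the 3 THRBKO livers at ZT10 (circles) and the 3 at ZT22 (squares), with the mean as a bar. The night arm lies left of the dotted line and the day arm right of it, and Dbp moves from a ZT10 mean of 205 CPM to 3.17 CPM at ZT22 while Arntl moves from 1.05 to 32.1 CPM.

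Of the 7 genes of the night arm, 6 rose and 1 was not called (85.7% called, against 14.6% of all tested genes). The median log2 fold change was 1.85. The clock genes had been divided into a night and a day arm with earlier results of these data known. The directions of the 2 arms are therefore a description. Beside Npas2 and Arntl, the repressor Cry1 rose from 11.4, 9.88 and 9.35 CPM at ZT10 to 52.1, 52.4 and 59.96 CPM at ZT22 (log2 fold change 2.43, SE 0.201, adjusted p = 1.43e-09). Nfil3, the D-box repressor, rose from 11.8, 10.1 and 12.3 CPM at ZT10 to 46.9, 37.9 and 38.6 CPM at ZT22 (log2 fold change 1.85, SE 0.187, adjusted p = 5.11e-08), and Clock from 12.4, 15.5 and 13.0 CPM at ZT10 to 36.9, 36.6 and 42.1 CPM at ZT22 (log2 fold change 1.496, SE 0.14, adjusted p = 1.35e-08). In these 3 genes the lowest ZT22 liver was above the highest ZT10 liver. Rora was at 54.1, 51.1 and 58.7 CPM at ZT10 and 44.4, 44.5 and 53.4 CPM at ZT22, with overlapping groups and an adjusted p of 0.424.

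Of the 12 genes of the day arm, 9 fell and none rose (75% called, against 14.6% of all tested genes), with a median of -2.50. Tef, the partner of Dbp, fell from 344, 323 and 311 CPM at ZT10 to 85.6, 73.3 and 73.1 CPM at ZT22 (log2 fold change -2.08, SE 0.2, adjusted p = 2.14e-08). Per1 fell from 75.5, 97.3 and 131 CPM at ZT10 to 24.3, 20.3 and 14.03 CPM at ZT22 (log2 fold change -2.37, SE 0.59, adjusted p = 0.00556), and Cry2 from 59.1, 55.8 and 59.97 CPM at ZT10 to 45.1, 36.2 and 44.9 CPM at ZT22 (log2 fold change -0.47, SE 0.142, adjusted p = 0.0223). The Cry2 groups did not overlap, but its call was lost without KO_ZT10a, KO_ZT10c or KO_ZT22b (adjusted p up to 0.125). Per2 was at 53.8, 57.5 and 46.9 CPM at ZT10 and 47.7, 24.1 and 58.7 CPM at ZT22, so its groups overlapped and KO_ZT22b stood below the other livers (adjusted p = 0.542). Hlf was at 65.1, 65.9 and 58.0 CPM at ZT10 and 43.1, 44.5 and 52.6 CPM at ZT22 and Bhlhe40 at 156, 132 and 141 CPM at ZT10 and 78.1, 97.8 and 109 CPM at ZT22, both with separate groups and neither past the threshold (adjusted p = 0.0695 and 0.158). Although listed in the day arm, Per2 had its highest THRBKO means at ZT14 and ZT18 (86.7 and 87.8 CPM), between the compared times. In THRBWT it fell by 0.79 (edgeR adjusted p = 0.033), and the difference between the genotypes had an unadjusted p of 0.162. Between ZT10 and ZT22 the period and cryptochrome genes thus did not move as a block in THRBKO. Per1 and Per3 fell, Per2 was not called, Cry2 fell and Cry1 rose.

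**Figure D2:**
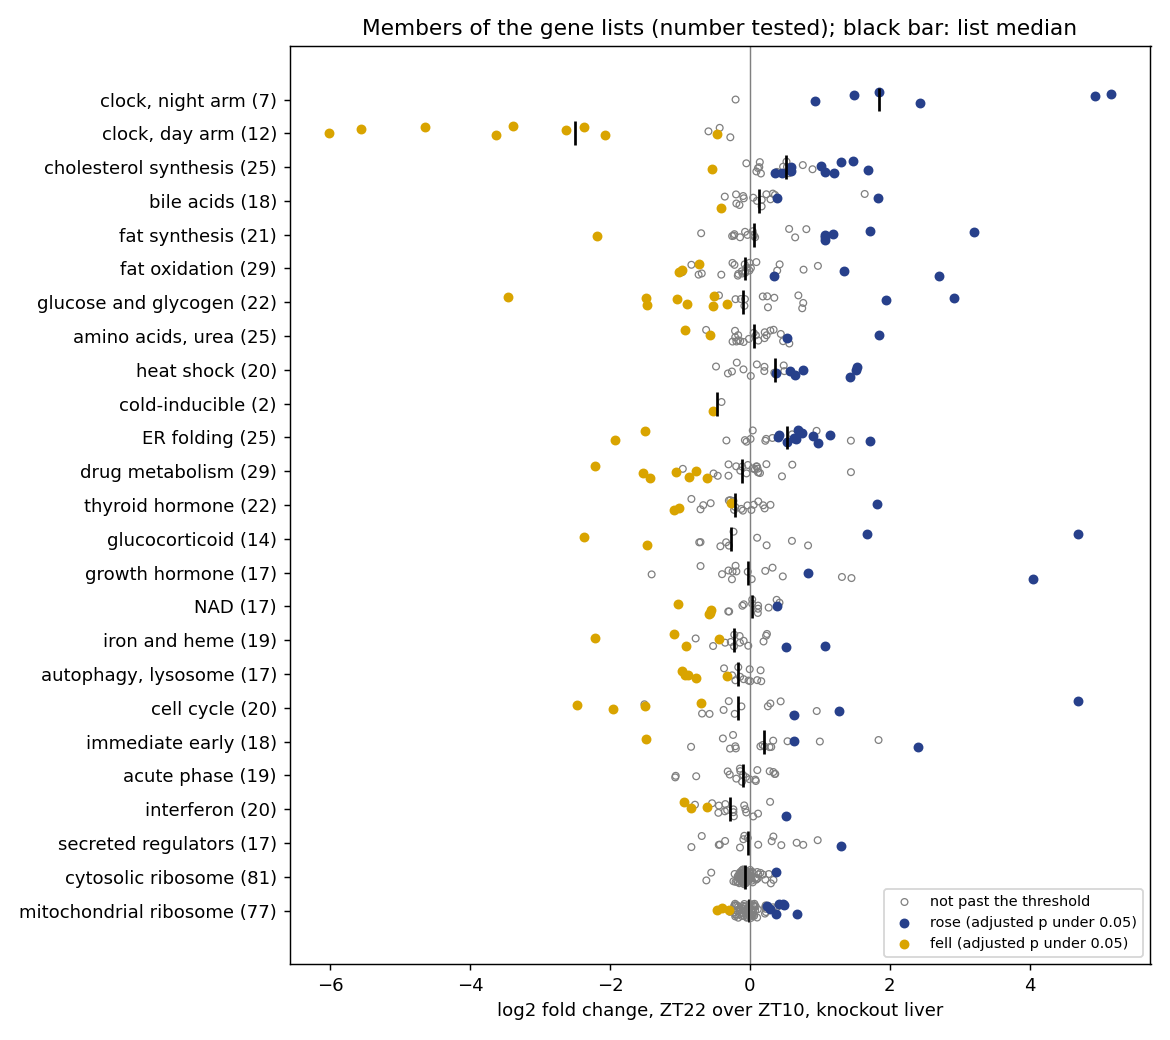
Log2 fold change from ZT10 to ZT22 in THRBKO liver for the tested members of 25 gene lists, with the number tested in parentheses, filled points for members with an adjusted p under 0.05, open points for the others and a black bar for the list median. The 2 clock lists have medians of 1.85 and -2.50, and the medians of the other lists lie between -0.47 and 0.53. Only the clock genes had been divided into a night and a day arm, so opposite medians follow from that division.

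Genes of other cell types were examined before the metabolic lists, since a piece of liver holds more than hepatocytes. Of 9 stellate cell and fibroblast markers, 6 rose at ZT22 and none fell (66.7% called, against 14.6% of all tested genes). The summed level of the list was 199 to 231 CPM at ZT10 against 317 to 369 CPM at ZT22, with no overlap. Col1a1, a chain of fibrillar collagen, was at 4.203, 6.46 and 8.30 CPM at ZT10 and 20.3, 18.3 and 15.1 CPM at ZT22 (log2 fold change 1.499, SE 0.356, adjusted p = 0.00385), and Col3a1, its companion in reticular fibres, at 14.9, 21.1 and 25.6 CPM at ZT10 and 50.5, 53.7 and 40.7 CPM at ZT22 (log2 fold change 1.23, SE 0.325, adjusted p = 0.0088). Every ZT22 liver was above every ZT10 liver for both. Des, which encodes the filament protein desmin, rose by 0.71 on the log2 scale, Pdgfrb, a growth factor receptor, by 0.67, Reln by 0.62 and Dcn, a matrix proteoglycan, by 0.60 (adjusted p = 0.00618, 0.0359, 0.0488 and 0.0227). Lrat, the retinol-storing enzyme that marks quiescent stellate cells, was at 17.3, 16.99 and 15.5 CPM at ZT10 and 18.1, 15.6 and 23.1 CPM at ZT22 and was not called, nor were Hgf and Rgs5, although the times did not overlap for Rgs5. Calls of Col1a1 and Des were made in every fit that left out 1 library. The call of Col3a1 was lost without KO_ZT10a (adjusted p = 0.0628), that of Dcn lost without KO_ZT10a, KO_ZT10b, KO_ZT22b or KO_ZT22c (adjusted p up to 0.092), that of Reln lost without KO_ZT10a, KO_ZT10c, KO_ZT22a, KO_ZT22b or KO_ZT22c (adjusted p up to 0.184) and that of Pdgfrb lost without KO_ZT10a, KO_ZT10b, KO_ZT22a, KO_ZT22b or KO_ZT22c (adjusted p up to 0.174). In bulk tissue, more cells of a type and more RNA per cell cannot be told apart.

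**Figure D3:**
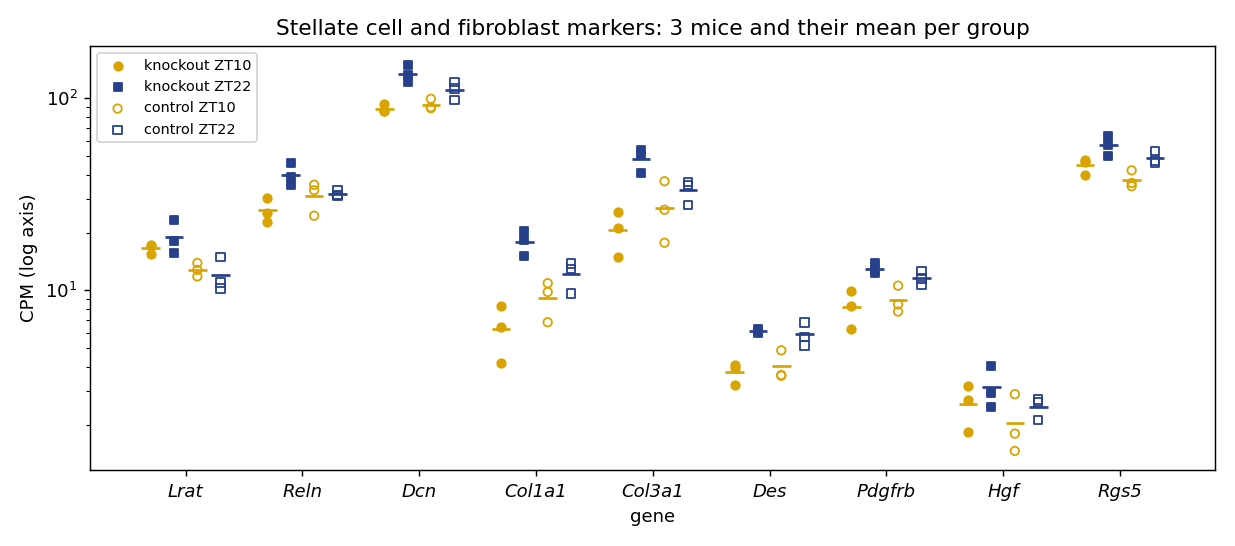
CPM (log axis) of 9 stellate cell and fibroblast markers in single livers, with the mean of 3 mice as a bar, for THRBKO (filled) and THRBWT (open) at ZT10 (circles) and ZT22 (squares). The 6 THRBKO livers separate by time for 7 of the 9 markers, all but Lrat and Hgf, and 6 of those 7 were called. Of all tested genes, 29% separate by time in these 6 livers. The 6 THRBWT livers separate for Des, Pdgfrb and Rgs5, of which Des was called.

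In THRBWT, 1 of the 9 stellate markers, Des, was called between the same times, and the summed level was 201 to 256 CPM at ZT10 and 260 to 283 CPM at ZT22, again with no overlap. The difference between the genotypes in the change of Col1a1 was 1.09 on the log2 scale (SE 0.496, unadjusted p = 0.0355) and that of Col3a1 was 0.93 (SE 0.455, unadjusted p = 0.0499). Neither passed the threshold after adjustment (adjusted p = 1 for both). These and the other cell type markers were named after their values were seen.

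No Kupffer cell marker was called by edgeR or DESeq2 (0 of 10, none with an unadjusted p under 0.05), and their sums of 290 to 412 and 262 to 440 CPM overlapped. Of 9 endothelial markers only Lyve1 was called, at 3.72, 5.12 and 7.50 CPM at ZT10 and 13.3, 10.2 and 13.4 CPM at ZT22, a call lost without KO_ZT10a, KO_ZT10b, KO_ZT22a or KO_ZT22c (adjusted p up to 0.145), while the endothelial sums of 224 to 243 and 257 to 303 CPM did not overlap. Among 5 cholangiocyte markers Sox9 alone was called, at 1.52, 1.53 and 1.28 CPM at ZT10 and 6.02, 7.02 and 8.14 CPM at ZT22 (log2 fold change 2.29, SE 0.261, adjusted p = 3.97e-07), and the summed levels of 29.2 to 40.7 and 37.1 to 44.3 CPM overlapped. The 5 erythroid genes, among them near-identical globin copies, had a median of -0.92 with sums of 310 to 646 and 145 to 451 CPM and no call by edgeR or DESeq2, with 1 unadjusted p under 0.05. None of 8 lymphocyte and 3 tested neutrophil markers was called by edgeR or DESeq2 or had an unadjusted p under 0.05, and 6 of 10 pancreatic acinar markers had no count in these 6 libraries. Of 5 adipocyte markers only Fabp4 passed the filter on low counts, and it was called at 8.54, 8.27 and 8.69 CPM at ZT10 and 15.2, 14.8 and 9.66 CPM at ZT22, a call lost without KO_ZT10a, KO_ZT10b, KO_ZT10c, KO_ZT22a or KO_ZT22b (adjusted p up to 0.121). Lep had no count. The part of stellate, endothelial and adipocyte RNA in the other results was not tested.

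Of 25 genes of cholesterol synthesis, uptake and their regulation, 10 rose at ZT22, 1 fell and 14 were not called. The share called was 44%, against 14.6% of all tested genes, with a median of 0.52 and a positive log2 fold change in 23. Hmgcs1, which makes HMG-CoA in the cytosol, was at 164, 153 and 170.0 CPM at ZT10 and 234, 377 and 743 CPM at ZT22 (log2 fold change 1.48, SE 0.309, adjusted p = 0.00119). Pmvk, a kinase of the mevalonate pathway, was at 55.8, 49.3 and 53.5 CPM at ZT10 and 103, 118 and 170.4 CPM at ZT22 (log2 fold change 1.30, SE 0.217, adjusted p = 9.48e-05), and Dhcr7, which acts late in the pathway, rose by 1.02 on the log2 scale (SE 0.209, adjusted p = 0.000963). The regulator Srebf2 rose less, by 0.59 (SE 0.125, adjusted p = 0.00135). KO_ZT22c was the highest liver for all 4, and for Hmgcs1 it stood far above the next. Without KO_ZT22c the list had 5 calls, 4 upward, and without KO_ZT10b it had 7. The member that fell was Stard4, a sterol carrier, at 138, 182 and 146 CPM at ZT10 and 92.3, 94.2 and 134 CPM at ZT22, a call lost without KO_ZT10b, KO_ZT10c, KO_ZT22a or KO_ZT22b (adjusted p up to 0.201).

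Bile acid genes were called near the background share, with 2 higher and 1 lower of 18 and a median of 0.14. Cyp8b1, the 12-alpha-hydroxylase that sets the share of cholic acid, rose from 182, 169 and 155 CPM at ZT10 to 682, 626 and 491 CPM at ZT22 (log2 fold change 1.83, SE 0.383, adjusted p = 0.0012). Every ZT22 liver had more than 2-fold the highest ZT10 level. Baat, which conjugates bile acids to amino acids, rose by 0.39 (adjusted p = 0.014), a call lost without KO_ZT10c or KO_ZT22a (adjusted p up to 0.0595), and Akr1c6, a hydroxysteroid dehydrogenase, fell by 0.41 (adjusted p = 0.0114), a call lost without KO_ZT10c or KO_ZT22c (adjusted p up to 0.0855). Without KO_ZT10c only Cyp8b1 remained called. Cyp7a1, the rate-limiting enzyme of the classic route, was at 76.5, 223 and 104 CPM at ZT10 and 161, 268 and 66.2 CPM at ZT22, with as wide a spread within each time as between them (adjusted p = 0.741).

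In fat synthesis, 6 of 21 genes rose, 1 fell and 14 were not called (33.3% called, against 14.6% of all tested genes). The median was 0.06. Agpat2, which adds the second acyl chain to glycerol and overlaps Egfl7 on the opposite strand, rose from 145, 129 and 125 CPM at ZT10 to 279.5, 245 and 317 CPM at ZT22 (log2 fold change 1.08, SE 0.141, adjusted p = 3.25e-06). Elovl5, an elongase of polyunsaturated fatty acids, rose from 239, 231 and 299 CPM at ZT10 to 547, 603 and 607 CPM at ZT22 (log2 fold change 1.19, SE 0.278, adjusted p = 0.00333). Lpin1, the phosphatidate phosphatase lipin 1, was the member that fell, from 240.2, 298 and 293 CPM at ZT10 to 69.2, 48.2 and 65.3 CPM at ZT22 (log2 fold change -2.19, SE 0.428, adjusted p = 0.00064). These 3 genes had clearly separate groups and were called in every fit that left out 1 library. Acacb, the acetyl-CoA carboxylase that makes the malonyl-CoA restraining fat oxidation, rose by 1.72 (adjusted p = 0.0122), a call lost without KO_ZT10b, KO_ZT10c or KO_ZT22c (adjusted p up to 0.0657). Fasn, fatty acid synthase, was at 1195, 737 and 829 CPM at ZT10 and 777, 601 and 2948 CPM at ZT22, where KO_ZT22c was the highest and KO_ZT22b the lowest of all 6 livers, and Thrsp, a thyroid hormone responsive gene, was at 1162, 497 and 859 CPM at ZT10 and 677, 387 and 1553 CPM at ZT22. Neither was called (adjusted p = 0.436 and 0.969). The list had 3 calls without KO_ZT10b, 3 without KO_ZT10c and 4 without KO_ZT22c.

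In fat oxidation, 3 of 29 genes rose and 3 fell, with a median of -0.07. The share called was 20.7%, against 14.6% of all tested genes. Cpt1a, the gate of mitochondrial fatty acid import and a known thyroid hormone target, fell from 335, 473 and 319 CPM at ZT10 to 182, 230.4 and 149 CPM at ZT22 (log2 fold change -1.01, SE 0.165, adjusted p = 7.61e-05). Bdh1, a ketone body dehydrogenase, fell from 235, 245 and 239 CPM at ZT10 to 142, 165 and 128 CPM at ZT22 (log2 fold change -0.73, SE 0.0984, adjusted p = 5.37e-06). Pdk4, the kinase that shuts pyruvate dehydrogenase, rose from 2.10, 2.46 and 2.60 CPM at ZT10 to 11.8, 12.0 and 22.9 CPM at ZT22 (log2 fold change 2.70, SE 0.539, adjusted p = 0.000756). All 3, picked by adjusted p, separated the times fully, as did 29% of all tested genes. Cpt2, the inner membrane partner of Cpt1a, rose slightly, by 0.35 (adjusted p = 0.00532), a call lost without KO_ZT10a (adjusted p = 0.0537).

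Glucose and glycogen genes were called in 10 of 22 cases (45.5%, against 14.6% of all tested genes), 8 downward and 2 upward. The list median of -0.10 lay near that of all genes. Gys2, the liver glycogen synthase, fell from 367, 363 and 391 CPM at ZT10 to 141, 125 and 137 CPM at ZT22 (log2 fold change -1.48, SE 0.168, adjusted p = 3.73e-07). Ugp2, which makes the UDP-glucose that the synthase uses, fell from 600.3, 502 and 439.6 CPM at ZT10 to 248, 274 and 225 CPM at ZT22 (log2 fold change -1.05, SE 0.161, adjusted p = 3.47e-05), and Slc2a2, the glucose transporter GLUT2, by 0.90 on the log2 scale (SE 0.148, adjusted p = 7.73e-05). The phosphatase subunits that bind glycogen split in direction. Ppp1r3c rose from 27.0, 27.9 and 16.9 CPM at ZT10 to 167, 179.6 and 194 CPM at ZT22 (log2 fold change 2.91, SE 0.34, adjusted p = 5.93e-07), and Ppp1r3b rose by 1.95 (adjusted p = 0.000997), against the fall of Ppp1r3g given above. The groups of Gys2, Ugp2, Slc2a2 and Ppp1r3c, picked by adjusted p, did not overlap, nor did those of 29% of all tested genes. Pck1, which commits carbon to gluconeogenesis, was at 3111, 3279 and 4018 CPM at ZT10 and 1638, 1687 and 432 CPM at ZT22, with KO_ZT22c far below the others, and its fall (log2 fold change -1.47, SE 0.439, adjusted p = 0.0208) was lost without KO_ZT10c or KO_ZT22c (adjusted p up to 0.134). Ppp1r3b was named after its values were seen.

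Of 25 genes of amino acid and urea metabolism, 2 rose and 2 fell, near the background. Bhmt, which remethylates homocysteine, rose from 927, 782 and 669.7 CPM at ZT10 to 2402, 2301 and 3841 CPM at ZT22 (log2 fold change 1.84, SE 0.437, adjusted p = 0.00378). Tdo2, which opens tryptophan breakdown, fell from 1575, 1802 and 1517 CPM at ZT10 to 1262, 1075 and 958 CPM at ZT22 (log2 fold change -0.57, SE 0.09, adjusted p = 4.64e-05). Nags, which makes the activator of the urea cycle, rose by 0.53 (SE 0.104, adjusted p = 0.000675). Bhmt, Tdo2 and Nags, picked by adjusted p, each had separate groups, as did 29% of all tested genes. Sds, serine dehydratase, fell by 0.92 (adjusted p = 0.0199), a call lost without KO_ZT10b or KO_ZT22c (adjusted p up to 0.125), and it overlaps Plbd2 on the opposite strand.

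Of 20 heat shock chaperones and their partners, 7 rose, none fell and 13 were not called (35% called, against 14.6% of all tested genes). The median was 0.36. Hsp90aa1, the inducible HSP90, rose from 73.3, 113 and 87.5 CPM at ZT10 to 279.9, 193 and 321 CPM at ZT22 (log2 fold change 1.54, SE 0.211, adjusted p = 6.97e-06). Hspb1, a small heat shock protein, rose from 21.4, 19.6 and 33.3 CPM at ZT10 to 83.3, 68.9 and 61.5 CPM at ZT22 (log2 fold change 1.52, SE 0.225, adjusted p = 1.93e-05), and Hspa4l, an HSP110 relative, from 10.3, 12.8 and 10.1 CPM at ZT10 to 34.7, 25.9 and 29.1 CPM at ZT22 (log2 fold change 1.43, SE 0.191, adjusted p = 4.56e-06). Fkbp4, an HSP90 co-chaperone, rose by 0.76 (SE 0.0999, adjusted p = 3.11e-06), with KO_ZT22b the lowest of the 3 dark-phase livers for Fkbp4, Hsp90aa1 and Hspa4l. None of these 4, picked by adjusted p, overlapped between the times, nor did 29% of all tested genes. The cold-inducible RNA-binding proteins had the other sign, Rbm3 falling by 0.53 (adjusted p = 0.00793), a call lost without KO_ZT10c (adjusted p = 0.0537), and Cirbp at -0.40 without a call (adjusted p = 0.304).

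Folding genes of the endoplasmic reticulum had the highest share of calls after the clock lists, among lists of more than 2 genes that are not cell type markers. The lists were chosen with earlier results of these data known, so this rank is a description. Of all tested protein-coding genes, 16.97% were called. Of these 25 genes, 11 rose and 2 fell (52% called, against 14.6% of all tested genes), with a median of 0.53. Pdia4, a disulfide isomerase, rose from 111, 121 and 103 CPM at ZT10 to 295, 175 and 274 CPM at ZT22 (log2 fold change 1.15, SE 0.228, adjusted p = 0.000706), and Calr, the lectin chaperone calreticulin, from 728, 643 and 594 CPM at ZT10 to 1136, 769 and 1268 CPM at ZT22 (log2 fold change 0.69, SE 0.146, adjusted p = 0.00131). KO_ZT22b was the lowest ZT22 liver for both, closest to the ZT10 group. Hspa5, the master chaperone BiP, was at 412, 548 and 405 CPM at ZT10 and 967, 523 and 1058 CPM at ZT22 and overlapped through that liver, and its call (adjusted p = 0.0423) was lost without KO_ZT10a, KO_ZT10c, KO_ZT22a or KO_ZT22c (adjusted p up to 0.199). The members that fell were Herpud1, a part of the degradation machinery, from 548, 429 and 505 CPM at ZT10 to 196, 132 and 194 CPM at ZT22 (log2 fold change -1.51, SE 0.29, adjusted p = 0.000537), and Trib3, a pseudokinase induced by stress signalling, from 16.2, 9.71 and 14.9 CPM at ZT10 to 3.62, 4.01 and 3.09 CPM at ZT22 (log2 fold change -1.93, SE 0.27, adjusted p = 9.05e-06). Both, picked by adjusted p, fell without overlap, and 29% of all tested genes had no overlap. Hspa5 was named after its values were seen.

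Of 29 genes of drug metabolism, 7 fell, none rose and 22 were not called (24.1% called, against 14.6% of all tested genes). The median was -0.11. Por, the reductase that supplies electrons to cytochromes P450, fell from 634, 676 and 729.9 CPM at ZT10 to 219, 333 and 204 CPM at ZT22 (log2 fold change -1.43, SE 0.183, adjusted p = 2.33e-06). Abcc2, an exporter of conjugates into bile, fell from 489, 651 and 637 CPM at ZT10 to 277, 316 and 263 CPM at ZT22 (log2 fold change -1.05, SE 0.157, adjusted p = 2.17e-05), and Cyp3a25 from 1282, 929.9 and 1348 CPM at ZT10 to 609, 669.9 and 666 CPM at ZT22 (log2 fold change -0.87, SE 0.165, adjusted p = 0.00044). The receptor Nr1i2 (PXR) fell by 0.61 (SE 0.143, adjusted p = 0.00339). All 4, picked by adjusted p, had separate groups, as did 29% of all tested genes. Reads of Cyp3a25 may be shared with similar P450 genes. Without KO_ZT10a or without KO_ZT22c the list had 4 calls.

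Of 22 thyroid hormone signalling and response genes, 1 rose and 3 fell, with a median of -0.22. That was 18.2% called, near the 14.6% of all tested genes. Hr, the corepressor hairless and a thyroid hormone target, rose from 0.679, 0.906 and 0.866 CPM at ZT10 to 3.70, 3.12 and 1.91 CPM at ZT22 (log2 fold change 1.82, SE 0.42, adjusted p = 0.00304). Beside Cpt1a, the organic anion carrier Slco1a4 fell from 115, 101 and 122 CPM at ZT10 to 32.4, 78.6 and 48.2 CPM at ZT22 (log2 fold change -1.09, SE 0.313, adjusted p = 0.0164), and the coactivator Ncoa2 fell by 0.27 (adjusted p = 0.0313). The call of Slco1a4 was lost without KO_ZT10c, KO_ZT22a or KO_ZT22c (adjusted p up to 0.107), and that of Ncoa2 was lost without any 1 of the 6 libraries (adjusted p up to 0.104). Dio1, the deiodinase that is a standard readout of hormone action in liver, was at 44.7, 52.0 and 62.2 CPM at ZT10 and 58.3, 38.9 and 32.0 CPM at ZT22, with overlap (adjusted p = 0.644). The list had 2 calls without KO_ZT10c, KO_ZT22a or KO_ZT22c. Thra, the other receptor gene, was at 18.2, 15.7 and 17.2 CPM at ZT10 and 16.4, 21.5 and 17.7 CPM at ZT22 and was not called (adjusted p = 0.675). Dio1 and Thra were named after their values were seen.

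Among other endocrine lists, glucocorticoid-responsive genes gave 2 higher and 2 lower calls of 14 tested (28.6%, against 14.6% of all tested genes). They were Cdkn1a, Per1 and Pck1 from above and Ddit4, an inhibitor of mTORC1. Ddit4 rose from 5.82, 8.92 and 6.69 CPM at ZT10 to 27.3, 16.6 and 24.9 CPM at ZT22 (log2 fold change 1.68, SE 0.402, adjusted p = 0.00416). Sult1e1 and Mt2 of that list did not pass the filter on low counts. Of 17 growth hormone genes, Elovl3 and Stat5a rose and none fell (11.8% called). Stat5a, the signal transducer, rose from 12.1, 13.0 and 12.8 CPM at ZT10 to 23.4, 21.6 and 22.4 CPM at ZT22 (log2 fold change 0.84, SE 0.16, adjusted p = 0.00051) with separate groups, but shares its locus with Stat3 on the opposite strand. Igf1 was at 507, 589 and 573 CPM at ZT10 and 576, 486 and 573 CPM at ZT22 and was not called (adjusted p = 0.903). Of 17 liver-secreted regulators only Inhba, the activin A subunit, was called, at 8.15, 10.02 and 10.01 CPM at ZT10 and 22.5, 26.1 and 21.2 CPM at ZT22 (log2 fold change 1.31, SE 0.322, adjusted p = 0.00531). None of 19 acute phase genes was called by edgeR, where 4 had an unadjusted p under 0.05 and DESeq2 called 2.

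NAD genes gave 4 lower and 1 higher call of 17 (29.4%, against 14.6% of all tested genes). Nampt, the rate-limiting enzyme of NAD salvage and a known E-box target, fell from 132, 148 and 142 CPM at ZT10 to 66.9, 59.8 and 80.5 CPM at ZT22 (log2 fold change -1.02, SE 0.191, adjusted p = 0.000373). Nmrk1, which feeds nicotinamide riboside into the same pool, fell by 0.59 (adjusted p = 0.00303), and Sirt3, the mitochondrial deacetylase, by 0.56 (adjusted p = 0.000268), with overlapping genes Psmd13 and Ric8a on its opposite strand. Nampt, Nmrk1 and Sirt3, picked by adjusted p, separated the times, as did 29% of all tested genes. Aox1, aldehyde oxidase, was at 106, 155 and 189 CPM at ZT10 and 98.7, 94.5 and 109.5 CPM at ZT22, and its fall of 0.57 (adjusted p = 0.0131) was lost without KO_ZT10c or KO_ZT22b (adjusted p up to 0.163). Without KO_ZT10c the list had 3 calls.

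Of 19 iron and heme genes, 4 fell and 2 rose (31.6% called, against 14.6% of all tested genes), with a median of -0.22. Hfe2, the hemojuvelin that drives hepcidin, rose from 67.3, 59.0 and 59.6 CPM at ZT10 to 131, 127 and 134 CPM at ZT22 (log2 fold change 1.08, SE 0.166, adjusted p = 3.47e-05). Bach1, the heme-sensing repressor, fell from 45.8, 52.1 and 50.1 CPM at ZT10 to 23.9, 26.7 and 18.9 CPM at ZT22 (log2 fold change -1.09, SE 0.226, adjusted p = 0.00111). Smad7, an inhibitor of BMP signalling, fell by 0.91 (adjusted p = 0.00778), a call lost without KO_ZT10c or KO_ZT22a (adjusted p up to 0.0535), and Fech, which inserts iron into heme, by 0.44 (adjusted p = 0.00813), a call lost without KO_ZT10b or KO_ZT22c (adjusted p up to 0.0546). Hfe2, Bach1, Smad7 and Fech, picked by adjusted p, had separate groups, as did 29% of all tested genes. The list had 3 calls without KO_ZT10c or without KO_ZT22c.

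Of 17 autophagy and lysosome genes, 5 fell, none rose and 12 were not called (29.4% called, against 14.6% of all tested genes). The median was -0.17. Bnip3, a receptor for mitophagy, fell from 171, 185 and 178 CPM at ZT10 to 90.2, 92.5 and 99.4 CPM at ZT22 (log2 fold change -0.92, SE 0.11, adjusted p = 7.42e-07). Gabarapl1, an ATG8 family member, fell from 384, 326 and 385 CPM at ZT10 to 199, 236 and 126 CPM at ZT22 (log2 fold change -0.96, SE 0.15, adjusted p = 3.99e-05). Ulk1, the initiating kinase, fell by 0.88 and Atg14, which targets the lipid kinase complex, by 0.76 (adjusted p = 0.00064 and 0.000277). None of these 4, picked by adjusted p, overlapped between the times, nor did 29% of all tested genes.

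Cell cycle regulators split, with 3 of 20 higher and 4 lower (35% called, against 14.6% of all tested genes). Wee1, the kinase that holds cells before mitosis and a clock output in liver, fell from 33.8, 31.4 and 25.6 CPM at ZT10 to 7.73, 7.15 and 8.46 CPM at ZT22 (log2 fold change -1.96, SE 0.319, adjusted p = 7.26e-05). Ccne1, cyclin E1, fell from 3.46, 5.12 and 4.93 CPM at ZT10 to 1.16, 0.565 and 0.707 CPM at ZT22 (log2 fold change -2.47, SE 0.356, adjusted p = 1.3e-05). Cdkn1a had moved the other way, and Mcm2, a subunit of the replicative helicase, rose from 2.75, 2.15 and 2.30 CPM at ZT10 to 7.37, 5.97 and 4.06 CPM at ZT22 (log2 fold change 1.27, SE 0.3, adjusted p = 0.00363). The groups of these genes, picked by adjusted p, did not overlap, nor did those of 29% of all tested genes. Mki67, the proliferation marker, was at 1.65, 1.47 and 1.55 CPM at ZT10 and 1.35, 1.37 and 1.57 CPM at ZT22 and was not called (adjusted p = 0.885).

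Immediate early genes gave 2 higher and 1 lower call of 18, or 16.7%, near the 14.6% of all tested genes. Junb, an AP-1 subunit that overlaps Prdx2 on the opposite strand, fell from 25.6, 21.5 and 29.7 CPM at ZT10 to 8.67, 11.7 and 7.15 CPM at ZT22 (log2 fold change -1.48, SE 0.212, adjusted p = 1.25e-05). Btg2, an antiproliferative gene, rose by 0.63 (adjusted p = 0.0173), a call lost without KO_ZT10a or KO_ZT22c (adjusted p up to 0.115). Egr1, an early response factor, was at 3.10, 2.46 and 5.32 CPM at ZT10 and 5.27, 47.7 and 4.90 CPM at ZT22, so the ZT22 mean rested on KO_ZT22b, and its call (adjusted p = 0.0327) was lost without KO_ZT10a, KO_ZT10b, KO_ZT10c or KO_ZT22b (adjusted p up to 0.739), the highest without KO_ZT22b. Without KO_ZT10a the list had 1 call. Of 20 interferon genes 4 were called, against 14.6% of all tested genes. Stat2 rose by 0.52, and Irf7, Gbp3 and Psmb8 fell by 0.94, 0.84 and 0.61 (adjusted p = 0.00585, 0.00702, 0.023 and 0.0301). The call of Stat2 was lost without KO_ZT10a or KO_ZT22c (adjusted p up to 0.0569), that of Irf7 lost without KO_ZT22a (adjusted p = 0.0514), that of Gbp3 lost without KO_ZT10a, KO_ZT22a or KO_ZT22c (adjusted p up to 0.147) and that of Psmb8 lost without KO_ZT10a, KO_ZT22a, KO_ZT22b or KO_ZT22c (adjusted p up to 0.234). Only 1 call was made in that list without KO_ZT10a, without KO_ZT22a or without KO_ZT22c. Irf7 overlaps Phrf1 on the opposite strand.

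Of 81 tested genes of the cytosolic ribosome, 1 was called, Rpl7l1, higher by 0.37 (adjusted p = 0.00569), a call lost without KO_ZT22c (adjusted p = 0.0643), and the median was -0.07. Of 77 tested genes of the mitochondrial ribosome, 7 rose and 3 fell, 13.0% against 14.6% of all genes, with a median of -0.01. Mrpl4, Mrps2 and Mrps27 rose by 0.47, 0.49 and 0.67, and Mrps9 fell by 0.40 (adjusted p = 0.0014, 0.00224, 0.00271 and 0.00377). The count of 10 calls fell to 6 without KO_ZT10a, KO_ZT10c or KO_ZT22c and to 5 without KO_ZT22a.

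To place the pair of times within the day, the mean levels of the called genes were followed over the 6 sampling times of the THRBKO mice. Of the 1349 genes higher at ZT22, 665 (49.3%) had their highest mean at ZT22, 316 at ZT2 and 253 at ZT18, and 1026 (76.1%) had their lowest mean at ZT10. Of the 1273 lower genes, 868 (68.2%) had their highest mean at ZT10, 266 at ZT6 and 134 at ZT14, and 597 (46.9%) had their lowest mean at ZT22. These counts use the compared livers and are a description. Arntl was near its maximum at both ZT22 and ZT2, with means of 32.1 and 31.0 CPM, and Dbp had its lowest mean at ZT2, at 1.25 CPM, not at ZT22. The synthase and its regulator were out of step, since the mean of Gys2 was 374 CPM at ZT10 and 361 CPM at ZT14, while that of Ppp1r3c was lowest at ZT10 and highest at ZT22. Hsp90aa1 had its highest mean at ZT18, at 411 CPM, and Por at ZT14, at 821 CPM, so for these genes the contrast of ZT22 with ZT10 spans less than the range over the day. Nampt likewise was highest at ZT14, at 182 CPM.

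**Figure D4:**
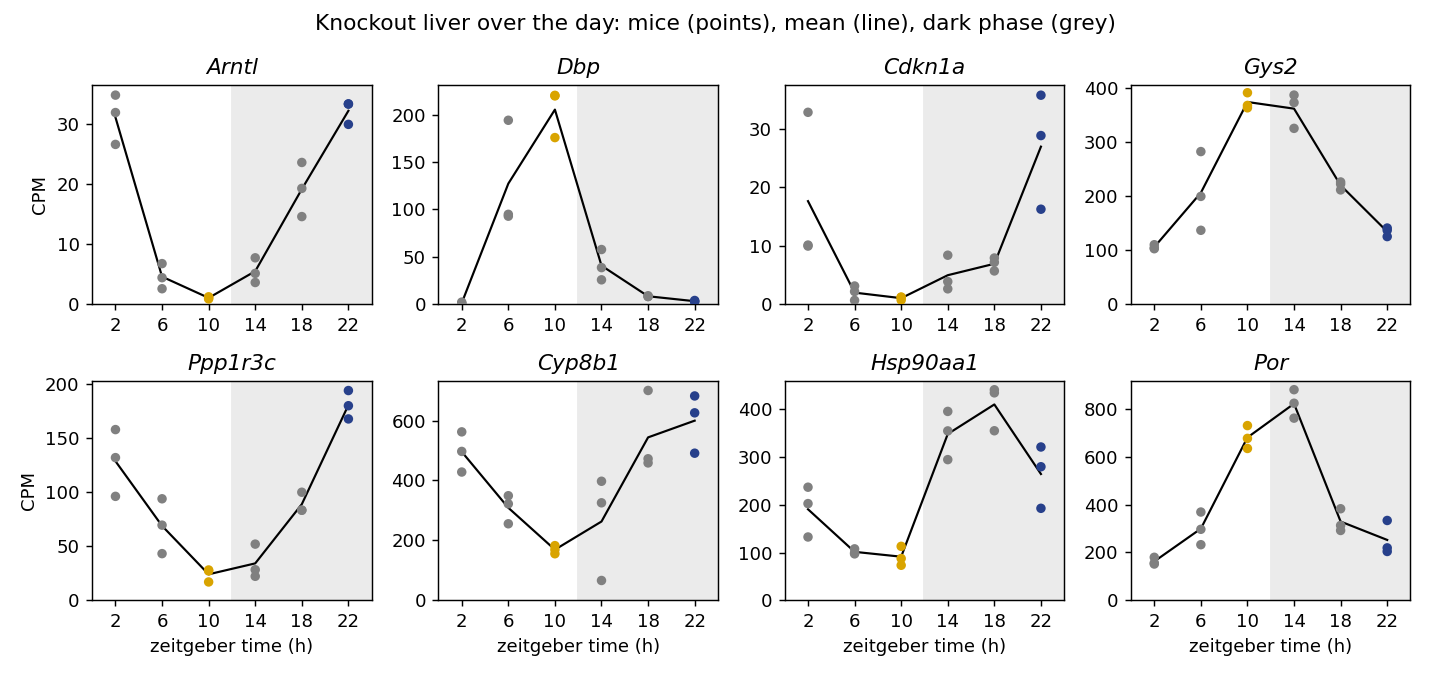
CPM of 8 genes in THRBKO liver at 6 zeitgeber times (h), with 3 mice per time as points, the mean as a line, ZT10 and ZT22 in colour and the dark phase in grey. Arntl, Cdkn1a, Ppp1r3c and Cyp8b1 are lowest at ZT10 and highest at ZT22, Dbp and Gys2 are highest at ZT10, and Hsp90aa1 and Por have their highest means at ZT18 and ZT14.

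Whether the change depended on the receptor was addressed by the same pair of times in THRBWT mice. There 2648 genes (14.7%) were called, 1249 higher and 1399 lower. The 2 lists shared 1767 genes, 67.4% of the THRBKO list and 66.7% of the THRBWT list, and no shared gene had opposite signs. Of the 2622 genes called in THRBKO, 2585 (98.6%) had the same sign in THRBWT, compared with 74.5% of all tested genes. In the direction of the THRBKO change, the median log2 fold change of these genes in THRBWT was 0.54, beside 0.63 in THRBKO where they had been chosen. For the genes called in THRBWT the values were 0.51 in THRBKO and 0.62 in THRBWT. Across the 3503 genes called in either genotype, the log2 fold changes had a Pearson r of 0.845, a description across genes, which are not independent replicates.

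**Figure D5:**
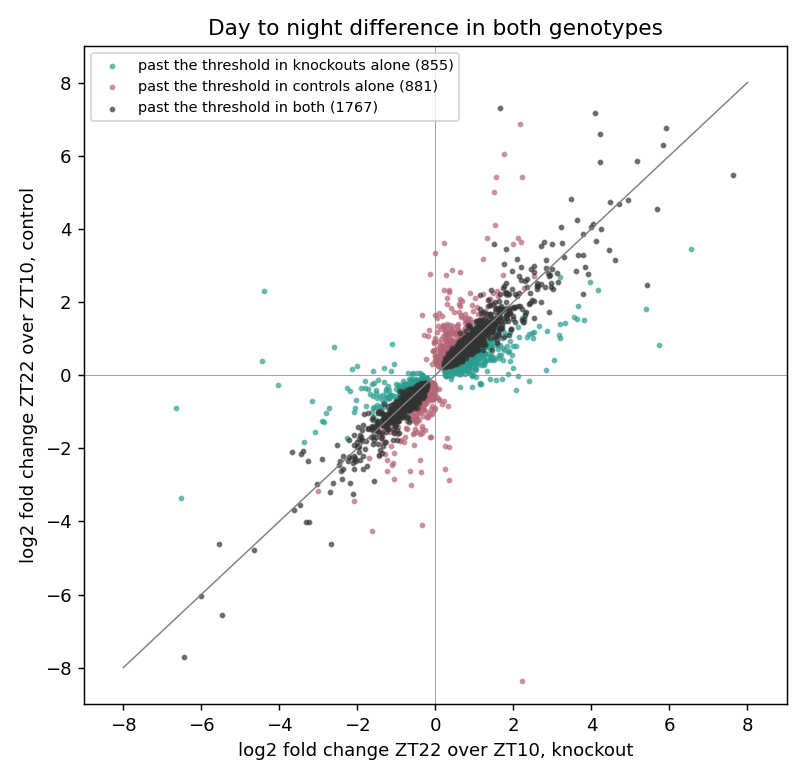
Log2 fold change from ZT10 to ZT22 in THRBKO (horizontal) against THRBWT (vertical) for the 3503 genes called in at least 1 genotype, coloured by where they were called, with the line of equality. The 1767 genes called in both lie in the quadrants of equal sign.

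A difference between the genotypes was tested directly for every gene. By edgeR no gene passed at an adjusted p under 0.05 (0 of 17994), 498 (2.77%) had an unadjusted p under 0.05, and DESeq2 called 1. Of the 855 genes called in THRBKO but not in THRBWT, 818 had the same sign in THRBWT and 96 (11.2%) had an unadjusted p under 0.05 for the difference, so a call in 1 genotype alone does not show that the change differed. Among the clock genes, the fall of Nr1d1 was -5.55 in THRBKO and -4.61 in THRBWT, a difference of -0.94 (SE 0.45, unadjusted p = 0.0451), and for Bhlhe41 the difference was -1.30 (SE 0.604, unadjusted p = 0.0403). For Arntl and Dbp it was 0.16 (SE 0.455) and 0.02 (SE 0.616). None of these 4 passed after adjustment.

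Some metabolic genes had an unadjusted p under 0.05 for the difference by edgeR, as did 2.77% of all tested genes. None of them passed after adjustment, so a smaller or larger change in THRBKO is not shown. Por fell by 1.43 in THRBKO and by 2.20 in THRBWT, where the livers were at 624 to 869 CPM at ZT10 and 132 to 191 CPM at ZT22, and the difference was 0.77 (SE 0.255, unadjusted p = 0.0054, adjusted p = 1). Hr rose by 1.82 in THRBKO and by 3.46 in THRBWT, where the livers were at 0.231 to 0.652 CPM at ZT10 and 3.58 to 5.71 CPM at ZT22, a difference of -1.64 (SE 0.615, unadjusted p = 0.0126). Its ZT22 level was lower in 2 of the 3 THRBKO livers than in every THRBWT liver. Aox1 had a log2 fold change of 0.06 in THRBWT, at 106 to 149 CPM at ZT10 and 129.5 to 141 CPM at ZT22, and a difference of -0.63 (SE 0.224, unadjusted p = 0.00876). Only 1 of the genes with the 5 smallest p-values had a mean above 50 counts, Spryd7 (chr14:61531993-61556886, minus strand), which was at 13.5, 16.1 and 16.7 CPM at ZT10 and 26.4, 24.5 and 38.1 CPM at ZT22 in THRBKO (log2 fold change 0.94, SE 0.164, adjusted p = 0.000152) and at 16.9 to 22.0 CPM at ZT10 and 18.9 to 20.4 CPM at ZT22 in THRBWT. Its difference was 0.96 (SE 0.23, unadjusted p = 0.000264, adjusted p = 1). Hsf2bp had the smallest p of all, 0.000201, with no count in the 3 THRBWT livers at ZT10 and 0.479 to 0.687 CPM at ZT22, against 0.226, 0.17 and 0.329 CPM at ZT10 and 0.967, 0.887 and 0.445 CPM at ZT22 in THRBKO. Its fitted fold in THRBWT rests on a group at 0 and is not given. The transcript Gm37847 was at 0.582, 0.425 and 0.478 CPM at ZT10 and 0.0552, 0.0269 and 0 CPM at ZT22 in THRBKO and at 0.0932 to 0.334 CPM at ZT10 and 0.0982 to 0.266 CPM at ZT22 in THRBWT (difference unadjusted p = 0.000636). These levels are of the order of 1 CPM or below.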

How the data were processed

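Polyadenylated RNA was sequenced in paired-end, non-directional libraries. Per the labels and the study's methods, the authors filtered the reads, mapped them to GRCm38 (mm10) with HISAT2, ran featureCounts to count reads per gene, and deposited raw counts for 54532 genes. Versions and the treatment of reads with several matches are not given in the sources used here, so near-identical or overlapping genes may share reads.

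All values here were computed from these counts. The filter kept genes whose counts summed to at least 100 over the 36 libraries, and these were tested with TMM scaling and edgeR 4.0.16 (glmQLFit, glmQLFTest, R 4.3.3) in a fit of 12 groups of genotype and time, which left 24 residual degrees of freedom. A call is a Benjamini-Hochberg adjusted p under 0.05. The standard error (SE) of a log2 fold change is its size divided by the root of F. CPM use TMM library sizes. DESeq2 1.42.0, other filters, other samples in the fit and leaving out each library were alternatives. Totals of 31931089 to 37534917 counts limit precision for genes near 1 CPM. No sample was left out.

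The members and gene lists were chosen with earlier results of these data known. Named genes were Thrb, the 10 largest changes in each direction (called, a mean of at least 50 counts over the 6 libraries, groups not overlapping, no Gm or Rik symbol), the clock genes (some list members are not reported here), up to 4 called members of each list by adjusted p with uncalled members needed for the pathway, and the 5 smallest p of the genotype difference. Letters of mice were not used to pair the livers in the main fit (sensitivity to them is given with the other alternatives). Libraries of a group differed by far more than sampling noise (chi-square per gene of 40.1 to 85.8), so none was counted as a duplicate.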

Additional observations from a re-analysis of the deposited data

Results flagged for a closer look

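A pair of genes with few counts had log2 fold changes of opposite sign between ZT10 and ZT22 in the genotypes, with no overlap of the times in either genotype. Ggn, known as a germ cell gene, was at 0.356, 0.481 and 0.269 CPM at ZT10 and 0.11, 0.161 and 0.236 CPM at ZT22 in THRBKO and at 0.154 to 0.217 CPM at ZT10 and 0.288 to 0.36 CPM at ZT22 in THRBWT, and the difference of the log2 fold changes was -1.94 (SE 0.511, unadjusted p = 0.000686 by edgeR). The transcript 3110070M22Rik was at 0.129, 0.113 and 0.149 CPM at ZT10 and 0.497, 0.511 and 0.209 CPM at ZT22 in THRBKO and at 0.435 to 0.617 CPM at ZT10 and 0.164 to 0.288 CPM at ZT22 in THRBWT, with a difference of 2.93 (SE 0.773, unadjusted p = 0.000702). Within THRBKO, Ggn was called (log2 fold change -1.11, edgeR adjusted p = 0.0347), a call lost without KO_ZT10a, KO_ZT10b, KO_ZT22a or KO_ZT22b (adjusted p up to 0.223), and within THRBWT it was not (adjusted p = 0.175). The transcript 3110070M22Rik was called in neither (adjusted p = 0.0555 in THRBKO and 0.0902 in THRBWT). Neither difference passed the threshold over all genes tested (adjusted p = 1 for both). The mean count over the 6 THRBKO libraries was 9.33 for Ggn and 9.67 for 3110070M22Rik, and the latter overlaps Tmem267, which had a mean of 298 counts, on the opposite strand. The part of that gene's reads was not tested.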

How the results depend on the processing

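The count of genes called between ZT22 and ZT10 in THRBKO was 2622 and stayed within 1.5 times under DESeq2 (2909), DESeq2 size factors in edgeR (2615), filterByExpr (2679), a filter of 1 count (2177), the 18 THRBKO libraries alone (2340) and a robust dispersion (2600). With only the 6 libraries compared it was 1589 (845 higher, 744 lower), a fit that has fewer samples for the spread. Leaving out each library gave 1682 to 2366 genes, the lowest without KO_ZT22c. In THRBWT the count of 2648 moved to 1635 with only the 6 libraries compared, and leaving out each library gave 1696 to 2353, the lowest without WT_ZT22c. The difference between the genotypes had 0 genes under every edgeR alternative and 1 with DESeq2, Cebpe, a gene singled out after its value was seen. DESeq2 gave it an adjusted p of 0.000172 and a fitted difference of the log2 fold changes of 25.8. By edgeR that difference was 11.9 (unadjusted p = 0.0161, adjusted p = 1). Fitted values of this size are not read as an amount of change. The cause was not tested.

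The 25 gene lists held 130 calls among 574 distinct genes tested, and 95 to 133 when 1 library was left out. Of 107 named genes, 101 were called, 77 of them in every fit that left out 1 library. Most named genes were picked for their calls or fold changes in this fit, and over all called genes 46.9% kept the call. Among 1498 comparisons with an alternative, no called gene reversed direction. Reversals of uncalled genes were not counted, and the log2 fold change of Per2 went from -0.28 to as high as 0.01 with 1 library left out. The letters a to c of the mice gave same-letter correlations of deviations of -0.06 to -0.01 over 3 pairs, against -0.05 to 0.09 for different letters. No pairing by letter was seen in these values, and a batch that touches only some genes was not tested. A replicate block on the letter gave 2778 calls in THRBKO, 2822 in THRBWT and 0 for the difference, and 133 in the lists. Depth limits the genes near 1 CPM, and 3 mice per group limit the rest.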
